A study of Mus musculus with 3 samples.

Results

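The regions described here are the stronger H3K27ac peaks that pancreatic epithelial spheroids of mice carried after caerulein and that had no counterpart in spheroids of untreated mice. They were chosen by 2 values of the deposited peak lists: a score of at least 300 in the post-caerulein list, on chromosomes 1 to 19, and an overlap of 0 bp with every untreated peak. The rule found 555 regions among the 38793 post-caerulein peaks, called members below. They are 2.43% of the 22878 post-caerulein peaks of that score on these chromosomes, and part of the 6681 peaks of any score without an untreated overlap, which were 17.6% of 37924 (untreated-only peaks of any score 5229 of 36846, 14.2%). The same rule with the lists exchanged found 851 stronger untreated-only peaks, 3.60% of 23626. The post-caerulein library thus had the higher list-only share over all scores and the lower among stronger peaks, and the score and the overlap of the members are given throughout as a description, without a test.

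The series holds 3 libraries of spheroids derived from wild-type C57BL/6J mice: H3K27ac of untreated mice, H3K27ac of mice after caerulein treatment, and an input of untreated spheroids without antibody, of which no peak list was used here. Each H3K27ac group is 1 library. Both were immunoprecipitated with the same antibody from pancreatic epithelial cells grown in 1 medium that held, among other additions, EGF, hydrocortisone, nicotinamide, cholera toxin and bovine pituitary extract, so the treated and the untreated cells share these agents. The dose of caerulein, the time between treatment and culture, the age of the mice and how many mice were pooled are not given in the sources used here. The lists hold no read counts, the depth is unknown, and a difference between the libraries has no replicate check and no p-value. In a lysate of many cells, more cells with a marked region and more mark per cell cannot be told apart, and neither can the treatment and whatever else differed between the 2 cultures.

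H3K27ac is acetylation of lysine 27 of histone H3, placed mainly by the acetyltransferases p300 and CBP at active promoters and enhancers. Caerulein is an analogue of cholecystokinin, which drives acinar cells to secrete digestive enzymes and, in excess, causes acute pancreatitis. During pancreatitis acinar cells can lose their enzyme programme and take on features of duct cells, a change known as acinar-to-ductal metaplasia, and spheroids of pancreatic epithelium usually resemble duct cells in culture.

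The labelled cell type was set against marker genes through the annotated transcription starts. Of 12 ductal markers, 6 had a start in the RefSeq table of promoters, and all 6 (Krt7, Cftr, Spp1, Epcam, Muc1 and Onecut1) lay under a peak in both lists. Of 10 acinar markers with a start there, 1 did (Bhlha15), and Nr5a2 had a start under a post-caerulein peak alone. No Nr5a2 start lay under a member, and the post-caerulein-only peak over an end of that gene was weak, with a score of 127.1. No start was covered in both lists for 6 mesenchymal and 5 endothelial markers, and 1 of 5 immune markers (Cd68) had such a start. Of 9 endocrine markers, Pdx1 was covered in both lists and Nkx6-1 in the post-caerulein list alone.

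Sequences of 5 promoters under members are shown here, 4 rich in G and C at genes the results name and 1 that holds both AP-1 and TATA letters, together with the microRNA under a member. They come from RefSeq, build GRCm38.p6, and each promoter runs from 250 bases before to 50 bases after an annotated start, 5′ to 3′ on the strand of the gene. Capitals mark matches on either strand to the letters of an AP-1 site (TGANTCA), a GC box (GGGCGG) or a TATA box (TATAAA); neighbouring GC boxes can join or overlap. The Actn1 window is chr12:80260314-80260613 on the minus strand, Igfbp4 is chr11:99040994-99041293 on the plus strand, Grb10 is chr11:12037371-12037670 on the minus strand, Ptprm is chr17:67354410-67354709 on the minus strand, and Cald1 is chr6:34709194-34709493 on the plus strand.
Actn1: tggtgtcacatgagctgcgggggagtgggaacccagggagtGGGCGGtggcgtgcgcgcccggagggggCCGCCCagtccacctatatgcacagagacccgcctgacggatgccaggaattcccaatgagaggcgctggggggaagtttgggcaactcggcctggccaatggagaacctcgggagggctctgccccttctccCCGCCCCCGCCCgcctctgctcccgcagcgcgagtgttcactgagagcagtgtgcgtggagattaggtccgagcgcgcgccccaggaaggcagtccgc
Igfbp4: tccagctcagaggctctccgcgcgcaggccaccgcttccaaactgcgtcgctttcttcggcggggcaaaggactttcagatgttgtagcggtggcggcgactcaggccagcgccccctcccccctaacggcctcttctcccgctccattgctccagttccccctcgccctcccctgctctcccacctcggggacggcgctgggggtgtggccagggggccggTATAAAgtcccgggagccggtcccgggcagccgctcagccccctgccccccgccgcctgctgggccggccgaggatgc
Grb10: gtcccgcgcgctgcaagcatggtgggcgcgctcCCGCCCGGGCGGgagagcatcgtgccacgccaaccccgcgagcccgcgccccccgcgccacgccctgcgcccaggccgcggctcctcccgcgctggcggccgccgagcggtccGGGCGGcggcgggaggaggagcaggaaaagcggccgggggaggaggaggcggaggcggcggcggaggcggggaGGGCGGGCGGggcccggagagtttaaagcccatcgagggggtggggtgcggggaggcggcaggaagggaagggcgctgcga
Ptprm: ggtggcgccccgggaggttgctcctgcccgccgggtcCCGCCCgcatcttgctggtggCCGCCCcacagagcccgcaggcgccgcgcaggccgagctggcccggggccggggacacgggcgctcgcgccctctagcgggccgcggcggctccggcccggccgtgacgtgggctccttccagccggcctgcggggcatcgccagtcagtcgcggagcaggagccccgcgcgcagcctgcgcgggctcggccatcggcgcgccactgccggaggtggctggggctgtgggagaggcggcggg
Cald1: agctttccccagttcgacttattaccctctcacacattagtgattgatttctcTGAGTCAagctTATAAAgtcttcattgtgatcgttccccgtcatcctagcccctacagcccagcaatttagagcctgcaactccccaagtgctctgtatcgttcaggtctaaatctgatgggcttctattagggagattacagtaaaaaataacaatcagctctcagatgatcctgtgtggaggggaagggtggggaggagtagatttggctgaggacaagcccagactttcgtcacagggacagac

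The Grb10 and Ptprm windows are 80.0% and 80.7% G and C, with 45 and 43 CpG dinucleotides, and hold 5 and 2 GC boxes. Actn1 has 68.3% G and C, 24 CpG dinucleotides and 4 GC boxes. Igfbp4 has 71.3% and 27, no GC box, and a TATA box shortly before its start. Cald1 differs from these, with 47.0% G and C, 5 CpG dinucleotides, and an AP-1 match followed closely by a TATA match. A match is a description of letters and not a site.

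The 2 mature arms of Mir802, a microRNA gene on chromosome 16, lie at chr16:93369737-93369758 and chr16:93369775-93369796 on the plus strand, under the member chr16:93364531-93370658. Capitals mark the seed, bases 2 to 8 of each arm.
mmu-miR-802-5p: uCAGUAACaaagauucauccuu
mmu-miR-802-3p: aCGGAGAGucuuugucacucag

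Members scored in the middle of their list and lower than the overlapping peaks above the same limit. Their median score was 417, above 45.9% of post-caerulein peaks of any score, against 1553 for the overlapping post-caerulein peaks of score 300 or more, and 357 of them (64.3%) lay under 500. The score is the peak caller's value in its own list and serves here to order and select peaks of that list. Where scores of both lists stand side by side at a locus, each is the score in its own list, and no change in acetylation is read from the pair. Just inside the limit were members at Kcnj15 (300.2), Trim36 (300.3) and Bnip3l (300.4), and just outside it post-caerulein-only peaks at Gramd3 (299.8), Sh3rf1 (299.6) and Rasgrf1 (299.4). The share of post-caerulein peaks without an untreated overlap fell from 12.1% (250 of 2070) at scores of 300 to 400 to 7.27% at 400 to 500, 4.24% at 500 to 700, 2.06% at 700 to 1000 and 0.312% at 1000 or more (45 of 14437). Untreated peaks gave 13.3%, 11.6%, 7.41%, 5.60% and 1.03% (165 of 16042) in the same bands of their own score. At 1000 or more the exact (Clopper-Pearson) 95% intervals were 0.227 to 0.417% after caerulein and 0.878 to 1.20% in the untreated list. These intervals cover counting error over peaks of 2 libraries only, and since members gather in runs they may be too narrow. Among overlapping post-caerulein peaks of score 300 to 400, the best-scored untreated partner lay under score 100 for 8.68%, and for 0.215% at 1000 or more, so that absence from the untreated list grades into weak presence.

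**Figure D1:**
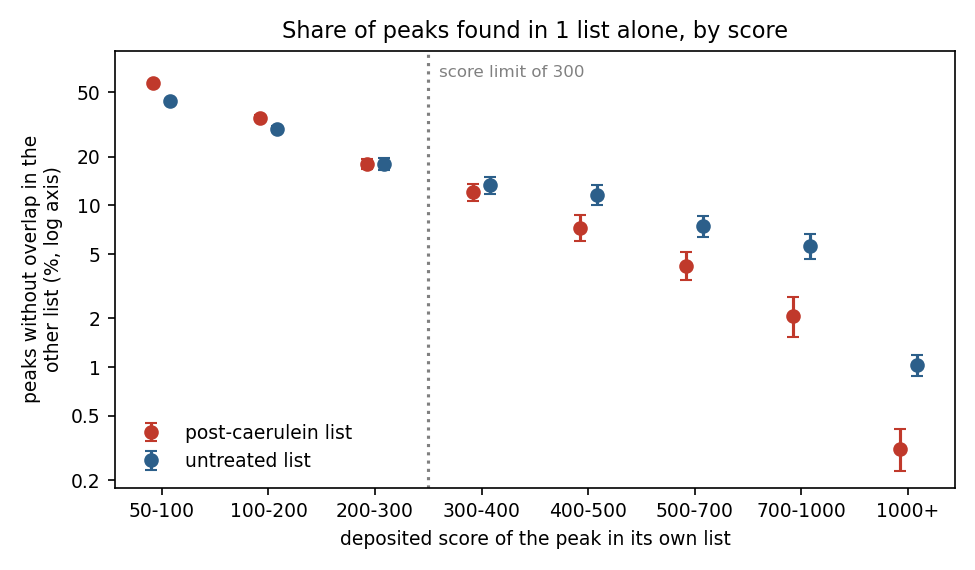
Share of autosomal peaks without any overlap in the other list (y axis, %, log axis) by the score of the peak in its own list (x axis), for the post-caerulein list (red) and the untreated list (blue), with exact 95% intervals over peaks. From score 300 on the post-caerulein share lies under the untreated share, down to 0.312% against 1.03% at scores of 1000 or more. The intervals overlap at 300 to 400 and are apart from 400 on.

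The members with the highest scores included pairs at Actn1, Hs3st1 and Cxxc5. Actn1 encodes alpha-actinin 1, which cross-links actin filaments and ties them to adhesion sites. A member of score 2879 and 20714 bp covered its start, and a member of score 2210 and 47631 bp lay inside the gene 22 bp further on. The second was the widest of all members. Together they covered 68.3 kb at a gene of 92.9 kb, within a stretch of 81.3 kb that had no untreated peak. The peaks on either side of that stretch were in both lists: upstream, post-caerulein peaks of score 3100, 1652 and 3146 overlapped untreated peaks that reached 3100, 1465 and 3100. In the gene and 50 kb on either side, post-caerulein peaks covered 107.5 kb and untreated peaks 31.5 kb.

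Hs3st1 encodes a sulfotransferase that adds a 3-O-sulfate to heparan sulfate. A member of score 2964 and 15053 bp lay over one end of the gene, and a member of score 2337 and 5592 bp lay over its start. Hs3st1 was also the nearest gene of 2 stronger untreated-only peaks, of score 1546 and 330.7, at least 193558 bp from the member over the start. The next peaks upstream of the start were a post-caerulein-only peak of score 119.8 and a peak in both lists (1042 after caerulein, 504.6 untreated). Covered length in and around the gene was 34.7 kb after caerulein and 6.4 kb in the untreated list. Igfbp4 encodes a secreted protein that binds insulin-like growth factors. Its start lay under a member of score 1714 and 8420 bp, while the peak before it was in both lists with scores of 756.7 after caerulein and 1731 in the untreated list. At Cxxc5, which encodes a protein with a CXXC zinc finger that binds unmethylated CpG, members of score 3014 (9765 bp) and 1391 lay 3716 bp apart, and the first began 13 bp from a peak of score 3100 that was in both lists.

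The remaining members among the 10 highest scores lay at Csf2ra (3100), near Emb (2446), at Brox and Aida (2402), in Kcnq5 (2001) and near Usp25 (1821). Those near Emb and Usp25 lay far outside the genes, 132703 bp from Emb and 282331 bp from Usp25, and the first was 185.5 kb from any untreated peak. Kcnq5 encodes a voltage-gated potassium channel, and its member lay 83794 bp inside the gene. The names of the deposited peaks carry running numbers, and 5 numbers are skipped in the untreated list against 0 in the post-caerulein list. A total of 4 members lie in stretches where a number is skipped: the Csf2ra member and a second member of 551.7 at the end of chromosome 19, where 2 numbers are skipped, and the Brox and Aida member with a neighbour of 557.0 on chromosome 1, where 1 is. Whether an untreated peak belongs there was not tested. Without them 551 members were left, and of these 8.71% lay within 1 kb of a gene end, against 9.01% of all members.

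**Figure D2:**
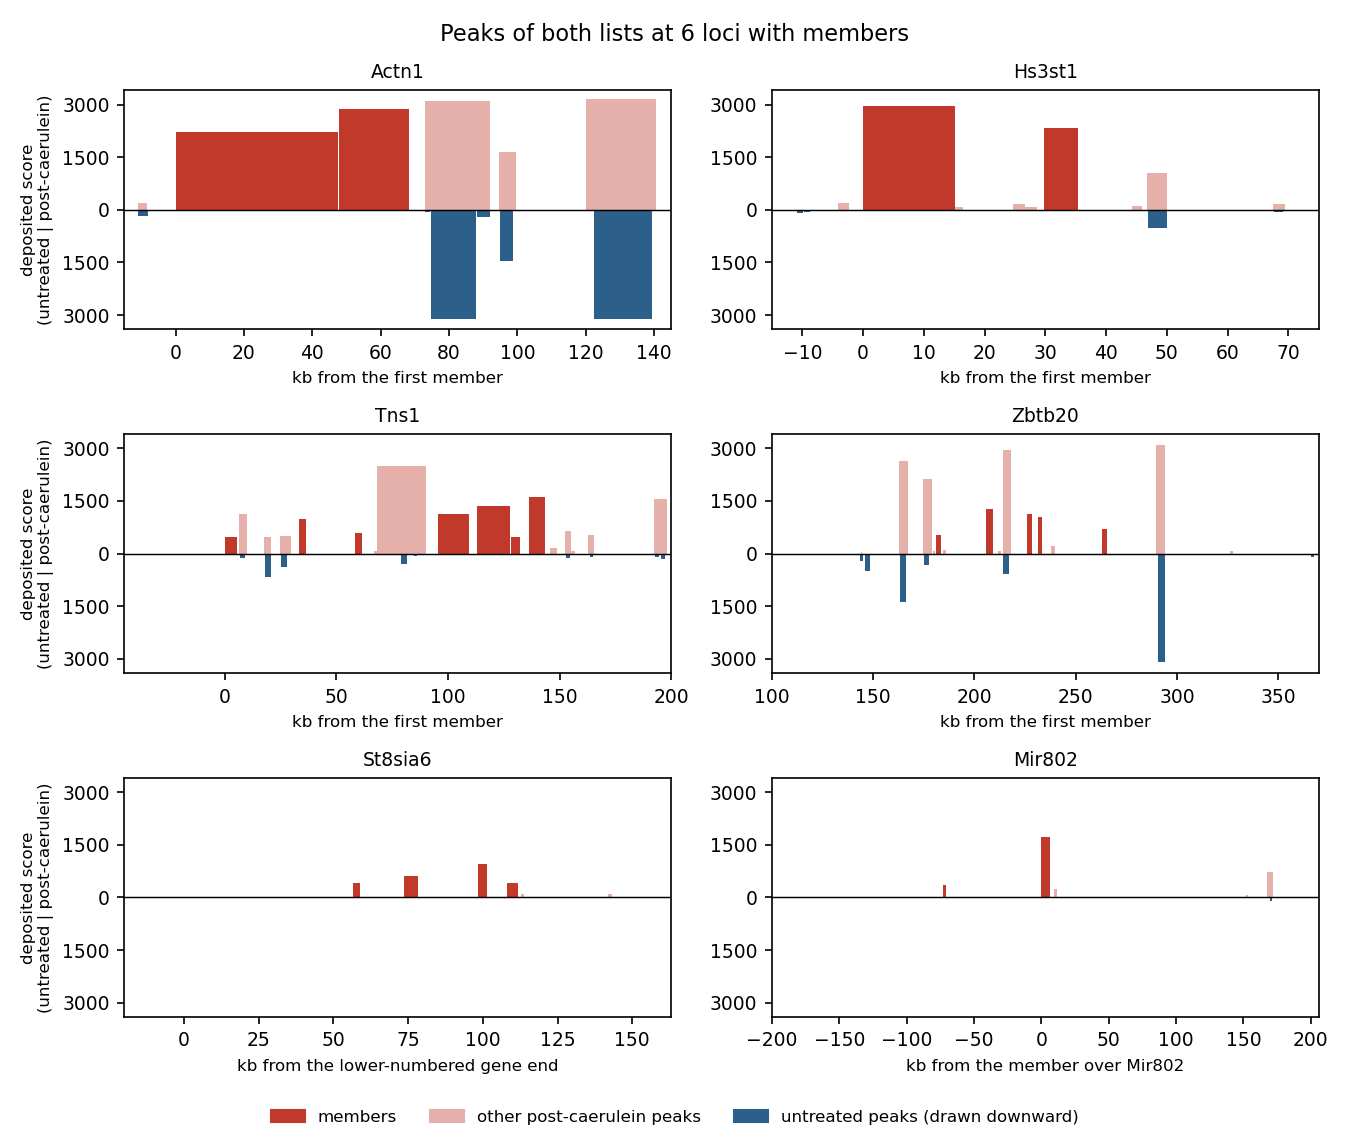
Deposited scores (y axis) of post-caerulein peaks (upward, members dark red, others pale) and untreated peaks (downward, blue) at 6 loci against the distance in kb from the first member, from a gene end or from the Mir802 member (x axis). Bars span the width of each peak and only part of Zbtb20 is drawn. The 2 Actn1 members fill a stretch without untreated peaks between peaks of both lists, and the St8sia6 panel holds no untreated peak.

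The member over Mir802 scored 1712 and was 6128 bp wide. It lay 163.8 kb from the nearest untreated peak and 212799 bp from the nearest end of a protein-coding gene, Setd4. Post-caerulein-only peaks of score 340.3 and 238.7 lay on either side of it, the first also a member. The next peak in both lists scored 722.5 after caerulein and 98.4 in the untreated list. A peak over a hairpin does not show which transcript, if any, the region serves.

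Members were mostly placed away from promoters. A gene end lay within 1 kb of 50 of 555 members (9.01%, exact 95% interval 6.76 to 11.7%), against 42.9% of the overlapping post-caerulein peaks of score 300 or more. Position was no part of the rule, but promoter peaks are stronger, so the bands of score were compared. Members gave 7.60%, 9.35%, 8.91%, 5.77% and 20.0% from the lowest band to the highest, and overlapping peaks 18.1%, 20.2%, 26.5%, 33.2% and 52.5%. The 95% intervals of the 2 sets were apart in all 5 bands. The untreated-only peaks gave 8.70% (6.89 to 10.8%), which did not differ beyond counting error from the members. An annotated transcription start lay inside 45 of 535 members (8.41%, 6.20 to 11.1%, chromosome 18 not used here), 39.5% of overlapping peaks and 47 of 829 untreated-only peaks (5.67%, 4.20 to 7.47%). Being far from gene ends was thus shared by list-only peaks of either list.

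Gene bodies held more of the members than of the untreated-only peaks. A protein-coding gene was overlapped by 358 of 555 members (64.5%, 60.4 to 68.5%) and by 443 of 851 untreated-only peaks (52.1%, 48.6 to 55.5%). Overlapping post-caerulein peaks gave 73.3% in all, but 62.3%, 62.2%, 65.1%, 68.8% and 77.7% by band, close to the 61.2%, 61.7%, 66.3%, 71.2% and 77.8% of the members. Untreated-only peaks stayed between 48.0% and 55.2% in every band. The intervals of members and untreated-only peaks were apart over all scores together and at 1000 or more, and overlapped in each of the 4 lower bands. Of the members, 310 (55.9%) lay inside a gene and over 1 kb from its ends, 197 lay outside genes, and 65 of these were over 100 kb from any gene end. A member overlapped 296 of 20661 protein-coding genes (1.43%), and a stronger untreated-only peak 384 (1.86%).

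**Figure D3:**
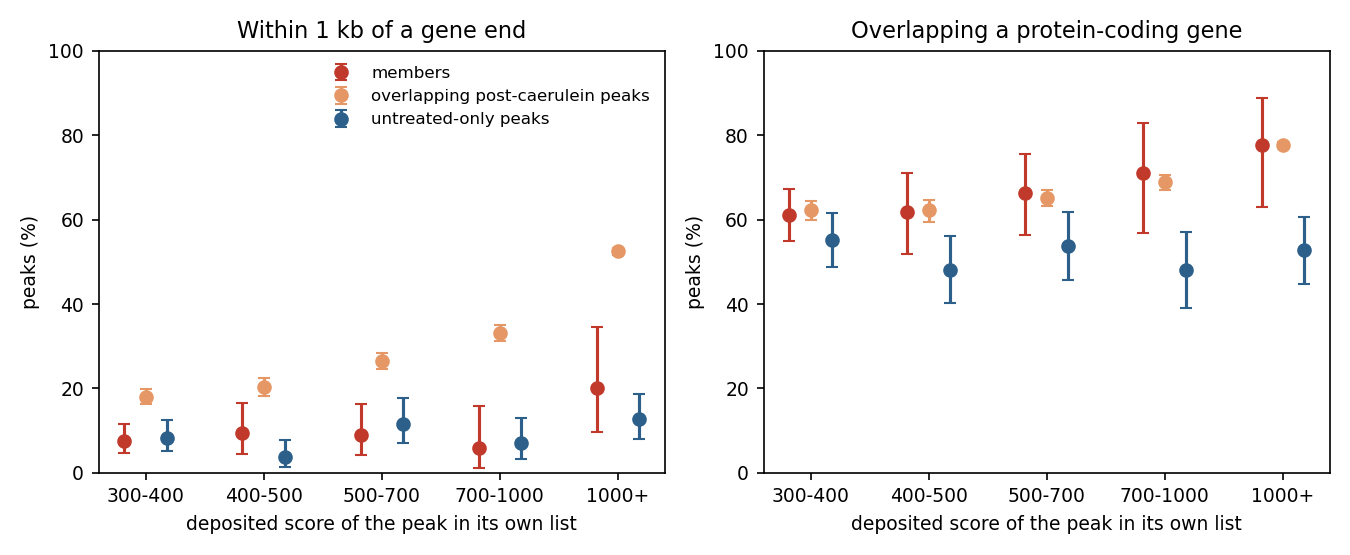
Share of peaks within 1 kb of a gene end (left, y axis in %) and overlapping a protein-coding gene (right, y axis in %) by score in the peak's own list (x axis), for members, overlapping post-caerulein peaks and untreated-only peaks of score 300 or more, with exact 95% intervals over peaks. In every band members sit under the overlapping peaks at gene ends (7.60% against 18.1% in the lowest), while they lie close to them for gene bodies.

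In each band of score the median width of members was above that of overlapping post-caerulein peaks. Over all members it was 2863 bp, with 1998 bp at the tenth percentile and 4815 bp at the ninetieth. By band the medians were 2545, 2872, 3234, 3762 and 4929 bp, against 2336, 2576, 2737, 2988 and 4545 bp for overlapping peaks. Untreated-only peaks were also wider than overlapping untreated peaks in the 4 bands under 1000 (2237, 2517, 2682 and 2929 bp against 2195, 2362, 2521 and 2691 bp), and narrower at 1000 or more (3803 against 4156 bp). After the Actn1 and Hs3st1 members, the widest were at Tns1 (14685 and 13970 bp), Cxxc5 (9765 bp), Igfbp4 (8420 bp), Nr5a2 (7976 bp), near Emb (7909 bp) and at Nav2 (7699 bp). A wide peak may be several elements joined by the caller.

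Distances between members and peaks of the untreated list varied widely. The median distance to the nearest untreated peak was 10.4 kb, with quartiles of 3.45 and 41.2 kb. Of the members, 37 lay within 1 kb of an untreated peak and 181 within 5 kb, while 124 (22.3%) lay beyond 50 kb and 15 beyond 500 kb. The stronger untreated-only peaks showed nearly the same distances to the post-caerulein list, with a median of 10.5 kb and 177 (20.8%) beyond 50 kb. A stronger post-caerulein peak with an untreated overlap lay within 50 kb of 412 members (74.2%), while 85.8% of the overlapping post-caerulein peaks of score 300 to 1000 had another such neighbour. Of the members, 81 members (14.6%) adjoined a post-caerulein peak with an untreated overlap within 1 kb. A stronger untreated-only peak lay within 50 kb of 12 members (2.16%) and of 7.01% of the overlapping peaks of score 300 to 1000 (556 of 7931).

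**Figure D4:**
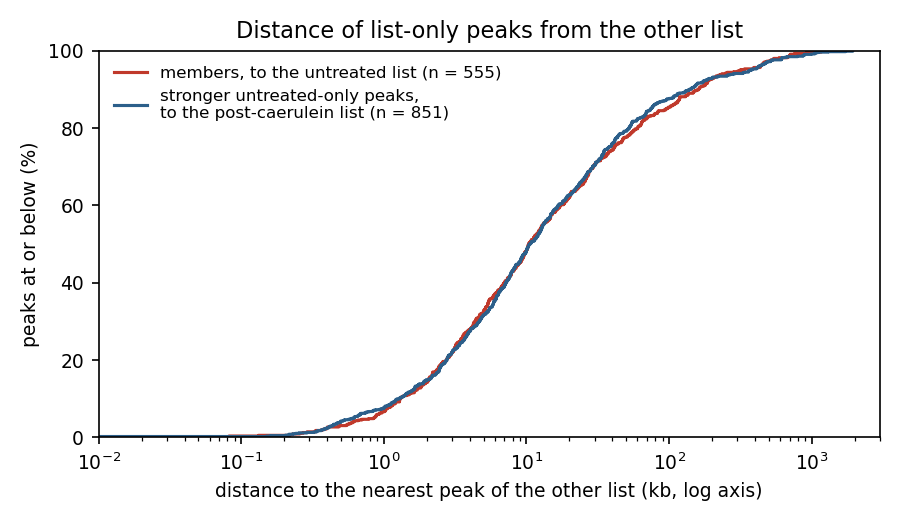
Cumulative share of peaks (y axis, %) by distance to the nearest peak of the other list (x axis, kb, log axis), for the 555 members (red) and the 851 stronger untreated-only peaks (blue). The curves nearly coincide, with medians of 10.4 and 10.5 kb.

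The 5 members farthest from any untreated peak lay in Rbfox1 (score 960.5, 1504.6 kb away), in Prr16 (378.1, 1163.9 kb), over the start of Fign (441.6, 922.5 kb), 1252826 bp from Zeb2 (305.9, 914.0 kb) and over the start of Ptprm (1188, 757.7 kb). Rbfox1 encodes a splicing regulator known from neurons and muscle, and its member was the only peak of either list in the gene and 50 kb around it. Ptprm encodes a receptor tyrosine phosphatase that binds its own kind on neighbouring cells. It held 3 members (354.0, 366.4 and 1188), and post-caerulein peaks covered 8.2 kb there, untreated peaks 0.0 kb. A member over a start of the neighbouring Arhgap28 (552.5) lay in the same stretch of 2114.9 kb without an untreated peak.

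Some genes gathered several members. By overlap or nearest gene end, 455 protein-coding genes had at least 1 member, 76 at least 2, 24 at least 3 and 5 at least 4. Within 50 kb of each other lay 142 members (25.6%) in 62 runs, and 262 of the stronger untreated-only peaks (30.8%) in 114 runs. The longest run of members was at Tns1, which encodes tensin 1, a protein that joins integrins to actin. Its 7 members scored 474.0 to 1612, spanned 143.3 kb and covered 52.2 kb. Peaks in both lists stood between them, such as a post-caerulein peak of 2505 and 21926 bp over untreated peaks of 286.4 and 73.8. In and around Tns1 the post-caerulein peaks covered 122.1 kb and the untreated peaks 33.0 kb.

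Zbtb20, which encodes a zinc finger repressor, had 8 members, the most of any gene, with scores of 356.1 to 1282. In and around the gene 19 of 36 post-caerulein peaks had no untreated overlap, and 3 of 19 untreated peaks had no post-caerulein overlap, 1 of them of score 300 or more (499.4). Peaks in both lists scored 3219, 2944, 752.0 and 52.8 after caerulein where the untreated peaks had 2091, 591.9, 1290 and 222.4 in their own list. Covered length was 100.4 kb after caerulein and 51.1 kb untreated. St8sia6 encodes a sialyltransferase. Its 4 members scored 398.9, 418.1, 603.6 and 951.3, and they lay in a stretch of 508.9 kb with no untreated peak, so that 15.9 kb was covered after caerulein and 0.0 kb in the untreated list. Bcas1 had 4 members of 320.5 to 563.0 (31.9 against 19 kb). The 4 members assigned to Etaa1, which encodes an activator of the ATR kinase, scored 315.3 to 925.0 and all lay outside it, between 28591 and 243162 bp away.

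Nr1h4, Nr5a2 and Hmga2 had members and also strong peaks of both lists. Nr1h4 encodes the bile acid receptor FXR and had 3 neighbouring members of 1114, 395.4 and 403.4 within 8.24 kb, next to a post-caerulein peak of score 3100 and 12198 bp that overlapped untreated peaks of 1556 and 2995. Covered length was 56.8 kb after caerulein and 31.1 kb untreated. Nr5a2 encodes LRH-1, a nuclear receptor needed for acinar gene expression. It had 3 members of 303.1, 326.0 and 685.1 (58.4 against 28.9 kb). The 326.0 member lay outside the gene, and the 685.1 member was 7976 bp wide. Hmga2, which encodes a chromatin protein known from embryonic and tumour cells, had 3 members of 346.7, 576.4 and 639.1 (66.3 against 25.2 kb). Between them lay a post-caerulein peak of 2396 and 20233 bp, over untreated peaks of at most 738.1.

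Of the other genes with 3 members, Cpe, which encodes the prohormone-processing carboxypeptidase E, had scores of 312.6 to 1540 (78.5 against 36.6 kb). Zfp462, a zinc finger gene, had 439.3 to 1208 (24.9 against 3.6 kb), and Egflam, whose product is the matrix protein pikachurin, had 308.0 to 845.7 (16 against 10.5 kb). The genes named here were selected on the number of members in the post-caerulein list, so the higher covered length after caerulein follows in part from the choice.

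**Figure D5:**
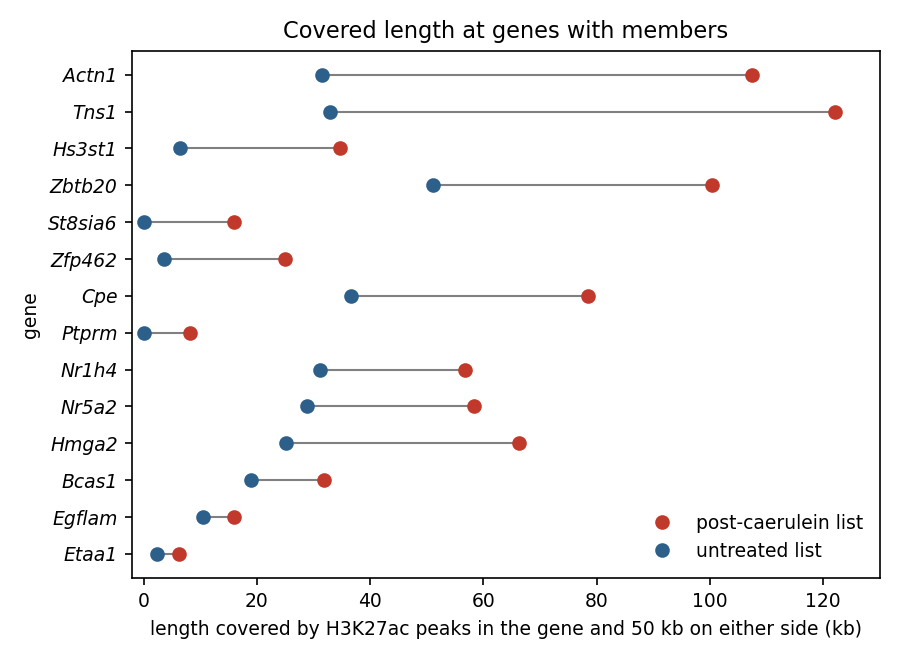
Length covered by H3K27ac peaks (x axis, kb) in the gene and 50 kb on either side for 14 genes (y axis), in the untreated list (blue) and the post-caerulein list (red), 1 library each. The red point lies to the right at every gene shown, by the most at Tns1 (122.1 against 33.0 kb) and Actn1 (107.5 against 31.5 kb). The genes were chosen by their members, so this follows in part from the choice.

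A total of 46 genes had an annotated start inside a member, 33 of them protein-coding. For 21 of the 33 the table gives no other start, for 6 it gives other starts without an untreated peak, and for 6 (Hpn, Wbp1l, Clasp2, Anxa9, Slc9a3r2 and Prkacb) another start of the gene lay under an untreated peak. The members over or within 1 kb of gene ends with the highest scores, beside those at Csf2ra, Actn1, Hs3st1, Brox and Igfbp4, were at Serpinh1 (1369), Grb10 (1306), Ptprm (1188) and Rdh7 (975.6). Serpinh1 encodes the collagen chaperone HSP47, and Grb10 an imprinted adaptor that binds the insulin and insulin-like growth factor receptors. The Grb10 member lay 109.6 kb from the nearest untreated peak, and that at Rdh7, a retinol dehydrogenase gene, 289 bp from it. Cald1, which encodes the actin-binding caldesmon, had a start inside the gene under a member of 857.5, and Slco2a1, which encodes a prostaglandin transporter, had its start under a member of 822.0.

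The starts under members were poorer in CpG than those under overlapping peaks. Over 51 distinct starts, median G and C content was 56.3% and the median number of CpG dinucleotides 7. Over the 12267 starts under overlapping post-caerulein peaks of score 300 or more these were 61.0% and 21, and over the 2120 under such peaks of score 300 to 1000 they were 59.3% and 18. Starts under untreated-only peaks had 49.5% and 4 (56 starts), and the 31365 starts listed in all had 53.0% and 7. The middle of the 51 starts ran from 45.0% (lower quartile) to 66.2% (upper quartile), so the promoters of Grb10, Ptprm, Igfbp4 and Actn1 printed above lie above the upper quartile and Cald1 between the lower quartile and the median.

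A GC box was present in 17 of 51 windows (33.3%, 20.8 to 47.9%), against 62.7% under overlapping peaks, 58.6% under those of score 300 to 1000, 23.2% under untreated-only peaks and 36.0% of all starts. The AP-1 letters were present in 6 of 51 (11.8%, 4.44 to 23.9%), against 5.63%, 5.61%, 7 of 56 and 7.85% in these sets, and the members' interval holds each of these shares. The TATA letters were present in 4 of 51 (7.84%, all starts 13.6%). Letters of the ETS (GGAAGT, 19.6%, all starts 23.9%), TEAD (GGAATG, 7.84%, 14.6%), CCAAT (25.5%, 37.3%) and E-box (CANNTG, 82.4%, 72.2%) motifs were searched in the same windows on both strands. Under overlapping peaks of score 300 to 1000 the CCAAT share was 41.9% and the E-box share 68.9%, both outside the members' intervals (14.3 to 39.6% and 69.1 to 91.6%), the latter narrowly. Untreated-only peaks gave 42.9% for CCAAT, outside the interval, and 85.7% for the E-box. These windows lie at starts, and members without a start were not searched because no genome sequence was used.

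Gene lists chosen for the tissue and the injury were read against the share of all protein-coding genes with a member inside or nearest, 455 of 20661 or 2.20% (untreated-only 694, 3.36%). Listed genes are often long or rich in peaks, and the counts were not adjusted for that. Of 33 genes for actin cross-linking and focal adhesion, 5 had a member: Actn1, Tns1, Peak1, Lpp and Itgb6. The scores were 333.1 to 576.9 at the 3 members of Peak1, 474.9 at Lpp and 302.9 at Itgb6, which encodes an epithelial integrin subunit. Another 3 genes (Fhl2, Tns3 and Tns4) had stronger untreated-only peaks, so tensin genes stood on both sides. Fhl2 had a run of 3 of them, with scores of 2115 to 3143, the upper one the highest of all stronger untreated-only peaks. An Fhl2 start lay under a peak of the untreated list alone, as an Actn1 start did in the post-caerulein list. The untreated-only peaks at or near Tns3 and Tns4 scored 417.6 and 309.3.

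Of 33 genes for growth factor receptors and MAPK signalling, 8 had a member and 2 a stronger untreated-only peak. The highest scores were in Ets1 (877.3), a transcription factor gene, and in and near the fibroblast growth factor receptor gene Fgfr2 (674.7 and 640.3). The Ets1 member lay 395 bp from an untreated peak and 9 bp from a stronger post-caerulein peak that was in both lists. The 674.7 member in Fgfr2 lay 246 bp from such a peak. Next were members at Rras2 (615.6 and 321.9), which encodes a Ras-related GTPase, and in Fgfr1 (579.3 and 379.5), another receptor gene. The 615.6 member also overlapped Spon1 and reached Rras2 only with its edge. The other genes with a member were Tgfa, Dusp4, Igf1r and Myc, with the Dusp4 member 116895 bp and the Myc member 464496 bp away. Dusp4 (untreated-only 370.1) and Myc (678.2 and 335.3) were the 2 genes with untreated-only peaks as well. The genes for epithelial plasticity, TGF-beta and matrix gave 6 of 31 with a member and 2 with an untreated-only peak (Tgfbr2, and Bmp4 with both). These members were mostly distant from their genes: 101108 bp for Fn1 (806.4), 121391 bp for Bmp4 (426.8), 156898 bp for Tgfb2 (388.6) and 1252826 bp for Zeb2, while Hmga2 and Itgb6 held theirs inside.

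Of 42 genes for cytokine receptors and inflammatory signalling, 3 had a member and 2 an untreated-only peak. Those with a member were Csf2ra (the alpha chain of the GM-CSF receptor, in the stretch with skipped numbers), Nfkbiz and Tnfaip3. The Nfkbiz member (700.7) lay 8946 bp from that gene, which encodes an atypical inhibitor of NF-kappaB. The Tnfaip3 member (336.3) lay 52575 bp from that gene, which encodes the NF-kappaB inhibitor A20. The untreated-only peaks lay at or near Il1a (1006.5) and Csf1 (480.6). None of the 20 genes for AP-1 and immediate early factors had a member, and none had a stronger untreated-only peak. For 14 of 15 of them with a start in the table, a start was covered in both lists, among them Fos, Jun, Junb and Atf3. The Wnt, Notch and Hippo list gave 3 of 34 with a member and 5 with an untreated-only peak. Those with a member were Wnt4 (470.8), Tead1 (323.6, 17538 bp away) and Axin2, a negative regulator and target of Wnt signalling. Axin2 had a start under a member of 355.1 that lay 390.5 kb from any untreated peak. The untreated-only peaks lay at or near Jag1 (839.9), Fzd1 (780.3), Tcf7l1 (536.1), Tcf7l2 (386.9) and Ctnnb1 (313.1).

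Markers of cell types were read against the same share of all protein-coding genes, 2.20% with a member (untreated-only 3.36%). Lists of 8 to 12 genes are too short to set such low counts apart from these shares. Those with a member were Nr5a2 of 11 acinar markers, Sox9 of 12 ductal markers (538.5, 164801 bp away) and Erg of 8 endothelial markers (711.4, inside the gene). Of 10 endocrine markers, the transcription factor gene Nkx6-1 had a member of 803.3 over its start and no untreated peak for 97.7 kb. The 10 mesenchymal, 9 immune and 10 tuft and gastric metaplasia markers gave 0. Stronger untreated-only peaks lay at Neurod1 of the endocrine list (2940 and 1653), Cftr of the ductal list (466.2 and 402.2), Kdr and Tek of the endothelial list (335.7 and 487.4) and Anxa10 of the tuft and gastric list, and at none of the acinar, mesenchymal and immune markers. A part of other cell types in the members was not tested beyond these counts.

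By chromosome, members were between 1.67% of the stronger post-caerulein peaks (chromosome 5, 24 of 1440) and 3.85% (chromosome 16, 34 of 883, exact 95% interval 2.68 to 5.34%). On chromosome 16 the untreated-only share was 2.56% (22 of 860, 1.61 to 3.85%). Only chromosomes 10 (35 against 34) and 16 (34 against 22) had more members than stronger untreated-only peaks. The 8 Zbtb20 members, the Mir802 member and its neighbour, and the Rbfox1 member are among those on chromosome 16.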

How the data were processed

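H3K27ac was profiled by ChIP-seq in 1 library of untreated and 1 of post-caerulein spheroids. Per the submitters' processing notes, the tools were MACS 1.4, SAMtools, Bowtie2 2.2.6 and Trimmomatic 0.38, on GRCm38 (mm10). The control library, options and read depth are not given in the sources used here. The deposited lists, 1 per library, hold a position and a score per peak. The authors' score has no stated definition, starts at 50, piles up at 3100 and was used to select and order peaks within 1 list only.

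Overlap of at least 1 bp was computed with pandas 2.3.3 and checked against bedtools 2.31.1 and on 2000 simulated peaks. Coordinates are given 1-based. Genes and starts came from RefSeq tables of GRCm38.p6 (20661 protein-coding genes and 31396 promoter entries on chromosomes 1 to 19, promoters of chromosome 18 not used here). The gene table gives ends without strand or exons, so exons, introns and UTRs were not analysed here. Shares carry exact Clopper-Pearson 95% intervals, and no p-value was computed. Named are the 10 highest-scored and 10 widest members, the 10 highest-scored within 1 kb of a gene end, up to 12 genes with at least 3 members (those with most, then by score), the 5 farthest members, 3 on each side of the score limit and up to 4 genes per list. Other genes were named after their values were seen. Members and gene lists were chosen with earlier results of these data known. Alternatives were other score limits, overlaps, windows, gene sets and distances.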

Additional observations from a re-analysis of the deposited data

How the results depend on the processing

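The number of members was 1107 with a score limit of 200, 198 with 500, and 1237 when peaks with less than 50% of their length covered by the other list were counted. The stronger untreated-only peaks numbered 1343, 448 and 1334 under the same changes, so they outnumbered the members under all 3. Under the other alternatives the members numbered 459 (peaks within 1 kb merged) to 561 (with X and Y) and the untreated-only peaks 711 to 879. The share of members near a gene end was 12.6% with a window of 2.5 kb. The share inside genes was 74.6% with all annotated genes and 70.2% with a limit of 500, and the median width was 3602 bp with that limit. At the shorter distance tried for runs, 70 members had a neighbouring member in place of 142 within 50 kb. The other 18 alternatives left their result within its interval or within 1.5 times. The planned motif search in wider windows was not run. No paired analysis was possible because the groups hold 1 library each. Without read depth, a region under the caller's threshold in the untreated library and a region without acetylation cannot be told apart.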

Other observations

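Several genes of the insulin-like growth factor axis carried members. They were picked after their values were seen, and no count of the axis was tested. Igfbp3 and Igfbpl1 were the nearest genes of stronger untreated-only peaks (747.9 and 540.9). Beside the starts of Igfbp4 and Grb10, the receptor gene Igf1r held 3 members of 339.3, 372.7 and 476.2 between strong peaks of both lists, such as a post-caerulein peak of score 3100 and 11875 bp over untreated peaks of 184.4, 402.9 and 259.0. Igfbp7, which encodes a secreted binding protein, held members of 318.1 and 1118. Covered length was 82.7 against 50.6 kb at Igf1r, 30.5 against 5.4 kb at Igfbp7, 14.9 against 8.9 kb at Igfbp4 and 14.1 against 4.5 kb at Grb10, post-caerulein first. In and around Igfbp4, 1 of 4 post-caerulein peaks and 2 of 5 untreated peaks had no overlap in the other list. Igf1r, Igfbp7 and Grb10 had no untreated-only peak in such a window. These genes and those of the next paragraph were chosen by their members, so the higher length after caerulein follows in part from the choice.

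Fibroblast growth factor genes, also picked after their values were seen, appeared beside the receptor genes Fgfr1 and Fgfr2. The ligand gene Fgf9 held members of 593.3 and 648.0 with the nearest untreated peak 70.2 kb away, and 5.7 kb was covered after caerulein against 0.0 kb untreated. Fgf1 had members of 314.1 and 564.7, with 16.3 kb covered against 4.8 kb. It lies wholly within the longer gene Arhgap26, so these members count for Arhgap26 as well. Ppara, which encodes a fatty acid receptor, held members of 305.0 and 1053 (42.3 against 30.3 kb), and Pde3a, a phosphodiesterase gene, members of 522.5 and 1068 with no untreated peak in the gene or 50 kb around it.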
